A study of Rattus norvegicus with 4 samples.

Results

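ATP-binding cassette (ABC) transporters of the neonatal rat hippocampus were examined in RNA-seq libraries from pups whose dams had received bisphenol A (BPA), a monomer of polycarbonate plastics with estrogenic activity, or vehicle. The set holds 9 genes chosen by name for lipid or drug transport. Of these, 8 genes were matched by symbol among the 17445 rows that the files list, namely Abca1 (gene ID 313210), Abca2 (79248), Abca7 (299609), Abcb1b (24646), Abcc1 (24565), Abcc4 (170924), Abcg1 (85264) and Abcg2 (312382). Abca3 had no row under its symbol and is described through 3 gene models named BGI_novel whose best protein match is the Abca3 protein. All pups were Wistar rats on postnatal day 1. Their dams were dosed by stomach tube each day, from gestational day 1 until delivery, with BPA at 5000 µg/kg body weight or with an equal volume of vehicle (the BPA stock was made in ethanol and diluted in corn oil). Each sex and treatment gave 1 library, made from a pool of 3 hippocampi, and values below are given in the order male control, male BPA, then female control, female BPA (library order). No group therefore has a replicate, and the spread between animals cannot be seen.

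ABC transporters couple the hydrolysis of ATP to the movement of a substrate across a membrane. Members of the A and G subfamilies mainly carry lipids. In the brain, Abca1 and Abcg1 pass cholesterol and phospholipid from cells, largely astrocytes, to particles built on apolipoprotein E, and both genes are targets of the liver X receptors. Members of the B and C subfamilies and Abcg2 export drugs, conjugates and signaling molecules, and several of them sit in the endothelium of the blood-brain barrier or in the choroid plexus.

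The values are FPKM, fragments normalized to the length of the gene model and to the depth of the library, so that levels can be compared between genes per length. The steps between low values gave about 8660000 to 8920000 fragments per library. The 95% intervals below are counting intervals from the fragments estimated at that depth, and cover counting error only. They say nothing of the spread between pups. The hippocampal markers were present, with Neurod6 at 135 to 161 FPKM and Rbfox3 at 34.7 to 37.7 FPKM over the 4 libraries. The libraries also differed in markers of tissue that lies beside the hippocampus. The summed level of 14 pericyte and meninges markers was 135, 128, 384 and 116 FPKM in library order, and all 14 were listed above 1 FPKM everywhere. That of 11 choroid plexus markers was 270, 715, 11.9 and 50.1 FPKM, and none of them was under 0.1 FPKM in all 4 libraries. Female control thus stood apart in the first list and the male libraries in the second.

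In both sexes and treatments the 8 transporters kept nearly the same order. Abca2, which is abundant in brain and linked to sphingolipid and myelin lipid handling, had the highest level in every library. Its values were 20.6, 20.4, 19.5 and 14.1 FPKM in library order, so female BPA was the low one. Abcc1, the multidrug resistance-associated protein 1, had values of 14.03, 14.45, 17.87 and 11.94 FPKM. Abcg1 was at 10.5, 10.6, 9.09 and 13.3 FPKM. The ranges of Abca2, Abcc1 and Abcg1 overlapped between neighbours in this order, while the lowest Abcg1 value lay above the highest value of Abca1. Abcc1 was second in 3 libraries and gave that place to Abcg1 in female BPA, where Abcg2 also stood above Abca1.

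A middle group followed. Abca1 had 4.61, 5.25, 5.97 and 4.93 FPKM in library order, highest in female control. Abcg2, the breast cancer resistance protein, had 4.06, 3.48, 4.20 and 5.61 FPKM, highest in female BPA. Abcc4, which exports cyclic nucleotides and prostaglandins besides drugs, was at 3.58, 3.40, 4.03 and 3.01 FPKM. These 3 genes overlapped from neighbour to neighbour. The last pair was far lower. Abca7 is a phospholipid transporter close in sequence to Abca1, and it is the gene of the set that the authors also assayed by qRT-PCR. With both sexes combined, the paper reports no significant change of Abca7 in that assay. Nor does the paper name Abca7 among the genes altered in males or in females. In the libraries Abca7 had 1.46, 0.84, 0.91 and 0.58 FPKM, highest in male control. Abcb1b, one of the P-glycoprotein genes, was at 0.51, 0.34, 0.62 and 0.58 FPKM, or only 12 to 21 estimated fragments per library. Abca7 rests on 33 to 84 fragments, whereas Abca2 rests on 988 to 1459.

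**Figure D1:**
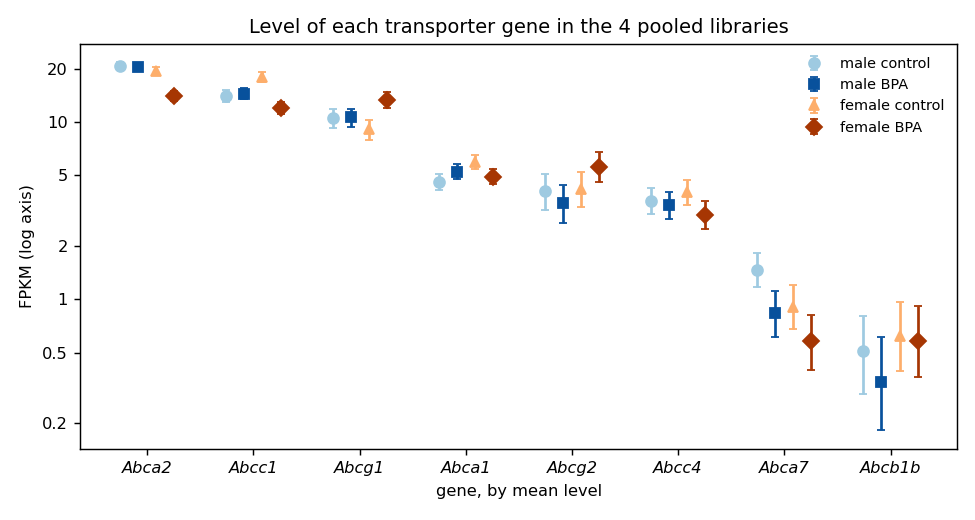
Level of each transporter gene in FPKM (log axis) in the 4 pooled libraries, 1 point per library, with bars for the 95% counting interval. Genes are ordered by mean level, from 18.6 FPKM for Abca2 to 0.51 FPKM for Abcb1b, and the bars widen toward the low end.

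Abcb1b has a close relative, Abcb1a, which is listed as Abcb1 (gene ID 170913) and carries most P-glycoprotein at the barrier of rodents. Abcb1a was at 2.80, 2.26, 2.90 and 2.85 FPKM in library order, above Abcb1b in each library. Reads shared by these near-identical genes can be split either way by the counting, so the level of Abcb1b is uncertain beyond its counting error.

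The promoters of Abca1 and Abca7 are shown because these relatives differ in level and in the sign of the male difference. The male sign of Abca1 is within counting error. A further reason is that Abca1 is a known target of the liver X receptors. Of the 9 genes, 8 had an entry in the RefSeq promoter table (assembly GRCr8), and Abcg1 is named only. Each window runs from 250 bases before the start to 50 bases after it. The Abca1 window is chr5:72596424-72596723 on the minus strand, and that of Abca7 is chr7:10361940-10362239 on the minus strand. Capitals mark matches to the motifs searched.
Abca1: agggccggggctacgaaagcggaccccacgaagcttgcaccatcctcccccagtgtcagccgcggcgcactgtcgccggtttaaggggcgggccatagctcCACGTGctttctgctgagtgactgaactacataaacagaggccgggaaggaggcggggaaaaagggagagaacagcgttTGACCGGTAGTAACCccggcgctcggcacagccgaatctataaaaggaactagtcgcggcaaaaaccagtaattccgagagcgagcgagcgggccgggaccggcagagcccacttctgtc
Abca7: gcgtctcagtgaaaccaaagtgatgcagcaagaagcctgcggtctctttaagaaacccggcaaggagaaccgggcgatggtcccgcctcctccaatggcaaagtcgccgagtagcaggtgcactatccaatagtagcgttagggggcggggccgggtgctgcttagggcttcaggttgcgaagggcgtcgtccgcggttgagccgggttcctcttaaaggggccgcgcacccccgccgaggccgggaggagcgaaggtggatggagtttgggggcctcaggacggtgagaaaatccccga
Both strands were searched for 4 motifs. The letters TGACCNNNNNTAACC follow the DR4 element, the direct repeat of receptor half-sites known from the human ABCA1 promoter, and they matched 1 of the 8 windows, that of Abca1, with its first base at position -70 from the start. A match was held by 0.0538% of all 33469 promoters. The E-box CACGTG matched in Abca1, at position -149, and in Abcb1b, against 6.42% of all promoters. The antioxidant response letters TGACNNNGC matched in 0 of the 8, against 12.1%, and the xenobiotic response letters TNGCGTG matched in Abcc4, against 4.89%. The DR4 and antioxidant motifs share their opening letters TGAC, but no matches overlapped. A match describes letters and is not a binding site shown here.

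To ask whether prenatal BPA went with a change in these genes in both sexes, the 2 BPA libraries were compared with the 2 control libraries with limma on log2(FPKM + 1), with Benjamini-Hochberg adjustment over the 13542 rows that averaged 1 FPKM or more. The filter kept 6 of the 8 members and left out Abca7 and Abcb1b. None of the 6 passed an adjusted p under 0.05 in limma, and neither did any other row (0.0% of rows called, 637 rows at an unadjusted p under 0.05). In simulated data this comparison recovered 0 of 200 rows changed by a log2 of 0.5 or 1, and 150 of 200 changed by 2. The absence of calls therefore cannot tell a change of 1 or less from none. The differences, BPA minus control on the log2(FPKM + 1) scale, were -0.25 (SE 0.16) for Abcc1, -0.23 (SE 0.18) for Abca2, -0.19 (SE 0.18) for Abcc4, -0.04 (SE 0.18) for Abca1, 0.09 (SE 0.22) for Abcg2 and 0.26 (SE 0.16) for Abcg1. Their adjusted p in limma lay between 0.973 and 0.990, and their unadjusted p between 0.142 and 0.832. Without the filter, Abca7 differed by -0.35 (SE 0.19) and Abcb1b by -0.10 (SE 0.13), with an adjusted p of 0.905 and 0.943 in limma. The libraries of one treatment differ in sex, so this spread includes any difference between males and females. The smallest two-sided p that exact permutation of these 4 libraries allows is 0.333. Without the female control library, the differences were 0.12 for Abca1, -0.27 for Abca2, -0.09 for Abcc1, -0.12 for Abcc4, 0.17 for Abcg1 and 0.10 for Abcg2, so that Abca1 changed sign and Abcc1 lay nearer to 0. Without the female BPA library, Abca2 turned to 0.023 and Abcg2 to -0.20, and Abcc1 came to -0.12, Abcc4 to -0.13 and Abcg1 to 0.11. Without a male library, Abcg1 was 0.36 (control left out) and 0.41 (BPA left out), Abcc1 -0.42 and -0.38, Abca2 -0.19 and -0.48, Abcg2 0.07 and 0.37, and Abca1 -0.20 and -0.08. The comparison within females rests on both female libraries and has no value without female control.

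Counted by overlap, 5 of the 8 genes overlapped between treatments. Abca7 and Abcc4 were lower in both BPA libraries than in both controls, as were 20.2% of the 10857 rows with a gene ID and a mean of at least 1 FPKM. For Abca7 the gap was narrow, with 0.84 FPKM in male BPA against 0.91 FPKM in female control. Abcg1 was higher in both BPA libraries than in both controls, as were 13.3% of those rows. Its values of 10.62 FPKM in male BPA and 10.49 FPKM in male control were within counting error of each other.

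Within a sex there is 1 library on each side, so no test was made and the values describe those libraries. In males, BPA and control lay close for most of the genes. The median difference of the 8 genes on log2(FPKM + 1) was -0.04, and that of 10842 rows with a gene ID was -0.0041. In males 5 of the 8 genes were lower in BPA, against 51.0% of rows with a gene ID, and 0 of 8 reached an absolute difference of 0.5, which 7.26% of all rows and 3.46% of rows with a gene ID reached.

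Abca7 stood farthest from 0 among the members in males. Its BPA to control ratio of FPKM was 0.575 (95% counting interval 0.391 to 0.822), and its difference was -0.42, a size that 5.97% of rows with a gene ID reached in either direction. It was the only member in males whose counting interval left out 1, which 25.1% of rows with a gene ID did. Abcb1b, with a ratio of 0.667 (0.307 to 1.57), and Abcg2, with a ratio of 0.857 (0.605 to 1.21), were not separated between their libraries at this depth. Abca2, Abcc1 and Abcg1 had male ratios of 0.988, 1.03 and 1.01, and all of their intervals included 1. Abca1 had a male ratio of 1.14 (0.989 to 1.31), and Abcc4 one of 0.950 (0.744 to 1.21).

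In females the same genes differed more, with a median absolute difference of 0.34 against 0.11 in males (0.15 and 0.12 for rows with a gene ID). The median difference of the 8 genes was -0.25, against -0.04 for rows with a gene ID, and 6 of the 8 were lower in BPA, against 57.2% of rows with a gene ID. The counting interval of the ratio left out 1 for 5 of the 8 genes, which held for 35.1% of rows with a gene ID. Other scalings, counted after seeing the data, moved these figures. With quantile normalization 5 of the 8 were lower, against 50.8% of rows with a gene ID, with medians of -0.15 and -0.0042. The interval left out 1 for 4 genes, Abca1 and Abcc4 no longer among them and Abcg2 added. The female difference was then -0.14 for Abca1, -0.19 for Abcc4 and -0.17 for Abca7. With median-of-ratios scaling 6 were lower, against 46.6% of rows with a gene ID, with medians of -0.21 and 0.02. The interval left out 1 for 6 genes, Abcg2 added. The share of rows whose interval left out 1 is given for the deposited values only. An absolute difference of 0.5 was reached by Abcc1 and Abcg1, or 2 of 8, where 10.1% of all rows and 6.15% of rows with a gene ID reached it. Abcc1 (-0.54) did not reach it after median-of-ratios scaling (-0.49) and came to -0.4999 after quantile normalization.

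Among the drug and conjugate exporters, Abcc1 had a female BPA to control ratio of 0.668 (95% counting interval 0.603 to 0.739) and Abcc4 one of 0.747 (0.581 to 0.952). Abcg2 went the other way with a ratio of 1.34 (0.983 to 1.81), which includes 1. Abcb1b had a ratio of 0.935 (0.482 to 1.82) and no difference was detectable at this depth. As deposited, the exporters of the C subfamily were thus both lower in female BPA, and the remaining pair was not separated from its control. This split depended on the scaling. After quantile normalization the interval of Abcc4 held 1, while that of Abcg2 (difference 0.45) left it out. After median-of-ratios scaling the intervals of Abcc1, Abcc4 and Abcg2 (difference 0.40) all left out 1.

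Among the lipid transporters, Abca2 had a female ratio of 0.723 (0.665 to 0.785), Abca1 one of 0.826 (0.721 to 0.944) and Abca7 one of 0.637 (0.398 to 1.01). Abcg1 was opposite, with a ratio of 1.47 (1.25 to 1.74). Abca1 and Abcg1, which act in sequence in loading cholesterol onto lipoprotein particles, therefore lay on opposite sides of 1 in females, while in males both intervals held 1. Abca7 had the lowest ratio of the 8 genes in each sex, and its female interval just reached 1.

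**Figure D2:**
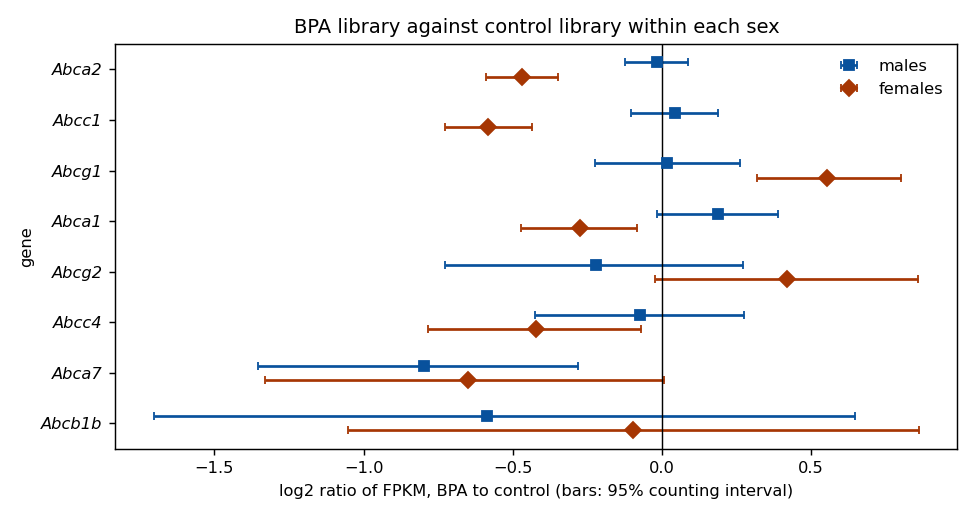
Log2 ratio of FPKM of the BPA library to the control library (horizontal axis) for each gene in males (squares) and females (diamonds), with bars for the 95% counting interval. The female points of Abca2, Abcc1, Abcc4 and Abca1 lie left of 0 and that of Abcg1 right of 0 with bars that do not reach 0, while in males this holds for Abca7 alone.

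The male and female differences had opposite signs for Abca1, Abcc1 and Abcg2. The male counting interval of each of these genes held 1, so its male sign is within counting error. No share of all rows with opposite signs is given. Abcc1 differed by 0.04 in males and -0.54 in females, Abca1 by 0.16 and -0.23, and Abcg2 by -0.18 and 0.35. Abca7 differed by -0.42 and -0.27. With 1 library per sex and treatment, the difference between the sexes has no replicate and was not tested. Rows of listed length over 6000 bases, which Abca1, Abca2, Abca7 and Abcc1 have, were lower in female BPA in 70.3% of 987 rows with a median difference of -0.10, and lower in male BPA in 40.02% with a median of 0.05. The female values of Abcc1 (-0.54), Abca2 (-0.44), Abca7 (-0.27) and Abca1 (-0.23) all lie beyond the female median. Long rows lie on both sides of their median by definition, so this does not set the genes apart. An absolute difference of 0.5 was reached in females by 4.36% of these long rows. The part of transcript length in the members' values was not tested.

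**Figure D3:**
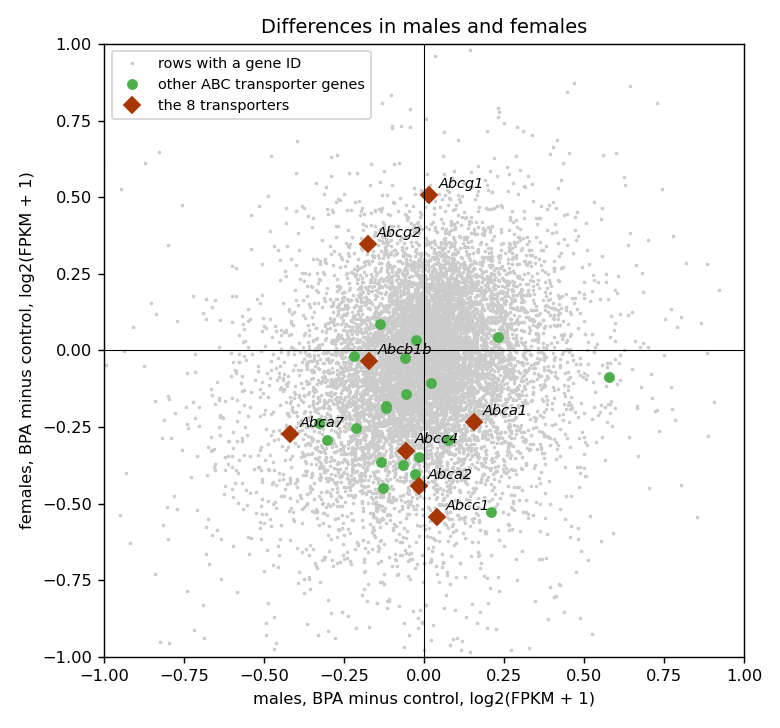
Difference of log2(FPKM + 1), BPA minus control, in males (horizontal) and females (vertical) for 10857 rows with a gene ID (grey, 95 of them outside the axes), 20 other ABC transporter genes (green) and the 8 transporters (diamonds). Abcg1 and Abcg2 lie above 0 on the female axis and the other 6 lie below, and Abca7 lies farthest left.

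The comparison of females with males, 2 libraries against 2 with limma on the same rows, called 1 row of 13542 (0.00738%) at an adjusted p under 0.05, and this was no member. Abca2 was lower in both female libraries than in both male libraries, as were 23.7% of the 10857 rows with a gene ID, and the nearest values were 19.46 and 20.37 FPKM. Abcg2 and Abcb1b were higher in both female libraries, as were 19.7% of those rows, with 4.20 and 4.06 FPKM as the nearest values of Abcg2. Abca2 differed by -0.29 (SE 0.15, adjusted p 0.554 in limma) and Abcg2 by 0.30 (SE 0.20, adjusted p 0.625 in limma). Both sizes depended on the female libraries. They were -0.07 and 0.13 without female BPA, and -0.51 and 0.47 without female control. Without male control they were -0.28 and 0.39, and without male BPA -0.30 and 0.21. Without the filter, Abcb1b differed by 0.17 (SE 0.14, adjusted p 0.758 in limma) and Abca7 by -0.29 (SE 0.21, adjusted p 0.728 in limma). The female to male ratio of FPKM was 0.623 between controls and 0.690 between BPA libraries for Abca7. It was 1.30 and 0.939 for Abca1, and 1.27 and 0.826 for Abcc1, so these genes lay on opposite sides of 1 in the control and BPA pairs.

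Abca3, which loads phospholipid into lamellar bodies in the lung and is also made in the brain, was the most abundant gene of the set if its models are summed. The sum was 39.05, 37.96, 37.51 and 32.74 FPKM in library order, a difference of -0.04 in males and -0.19 in females. The models shared this sum differently in males and females. BGI_novel_G000478 (6627 bases) had 30, 27.67, 11.79 and 15.24 FPKM, high in both male libraries. BGI_novel_G000480 (6263 bases) had 8.32, 10.28, 25.12 and 16.76 FPKM, high in both female libraries. The third model, BGI_novel_G000479, stayed at 0.74 FPKM or below.

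BGI_novel_G000478 thus made up 76.8%, 72.9%, 31.4% and 46.5% of the sum in library order. Its female minus male difference was -1.05 (SE 0.14, adjusted p 0.112 in limma), and that of BGI_novel_G000480 was 1.07 (SE 0.20, adjusted p 0.204 in limma). Neither passed the threshold. With treatment as a covariate BGI_novel_G000478 did, with an adjusted p of 0.01996 in limma, where its adjusted p ranged from 0.01996 to 0.548 over the settings tried. Since both models match the same protein, a fragment can be assigned to either, and the part of this assignment in the values was not tested.

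**Figure D4:**
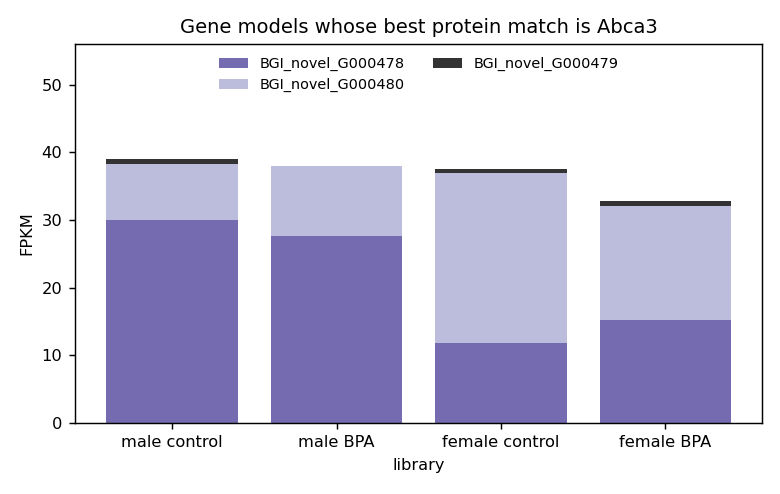
FPKM (vertical axis) of the 3 gene models whose best protein match is Abca3, stacked for each of the 4 libraries. The whole bars lie between 32.74 and 39.05 FPKM, and BGI_novel_G000478 is the larger part in males and the smaller part in females.

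Among 37 further ABC transporter genes listed in the files, 20 had a mean of at least 1 FPKM in each sex. In males 15 of the 20 were lower in BPA, against 51.0% of rows with a gene ID, and the median difference was -0.06. In females 17 of the 20 were lower, against 57.2% of such rows, and the median difference was -0.21. Of the 20, an absolute difference of 0.5 was reached by 1 gene in each sex, against 3.46% of rows in males and 6.15% in females. These were Abcd4, which takes part in vitamin B12 export from the lysosome, in males (2.31 FPKM in control and 3.94 in BPA, a difference of 0.58), and Abca8a, an A subfamily lipid transporter, in females (16.9 FPKM in control and 11.4 in BPA, a difference of -0.53). Abcc9, a subunit of the potassium channels of pericytes, differed by -0.14 in males and 0.09 in females. Of these 20 rows limma called 0 in the comparison of both sexes, with 1 at an unadjusted p under 0.05.

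Of the genes that control or accept lipid efflux, Nr1h2, the liver X receptor of the brain, was at 20.5, 19.6, 18.6 and 16.7 FPKM in library order, and Nr1h3, its relative, stayed at 0.72 FPKM or below. Apoe, the main lipid acceptor, was at 523, 409, 424 and 321 FPKM, lower in both BPA libraries than in both controls, and its differences were -0.35 (males) and -0.40 (females). Over the whole list, 9 of 17 measured genes were lower in BPA in males (median -0.03) and 14 of 16 in females (median -0.17). Of these measured genes, those with a mean of at least 1 FPKM, Apod, another apolipoprotein, was the one that reached an absolute difference of 0.5, in females (-0.63). Apom and Lcat, which lay below that mean in the sex concerned, differed by 0.69 in males and by 0.69 in females. Limma called 0 of the 16 rows it tested in the comparison of both sexes, with 1 at an unadjusted p under 0.05.

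Of the regulators of drug transport and its partner carriers, Nr1i2, the pregnane X receptor, was at 0.05 FPKM or below in females and was not listed for males. Nfe2l2, the transcription factor of the response to oxidants and electrophiles, was at 2.70, 4.02, 4.19 and 2.99 FPKM in library order, and its differences were 0.44 (males) and -0.38 (females). In this list 8 of 14 genes were lower in males and 11 of 14 in females, with medians of -0.04 and -0.19. Of rows with a gene ID, 51.0% were lower in males and 57.2% in females. In females the thyroxine carrier Slco1c1 differed by -0.58 and the organic anion transporter Slc22a8 also by -0.58. Limma called 0 of these 14 for both sexes combined, with 1 at an unadjusted p under 0.05.

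Markers of several cell types also differed between the libraries. For comparison, 51.0% of rows with a gene ID were lower in male BPA and 57.2% in female BPA. The medians of those rows were -0.0041 and -0.04. The summed level of 12 brain endothelium markers was 178, 168, 203 and 167 FPKM in library order, and 10 of the 12 were lower in female BPA, with a median of -0.36. All 12 were above 1 FPKM in each library. Of the 14 pericyte and meninges markers, 12 were lower in female BPA with a median of -0.57, and Ptgds, made by the meninges, went from 209 to 18.1 FPKM. The 10 astrocyte and radial glia markers were all lower in female BPA, with a median of -0.30, and 9 of 10 were lower in male BPA, with a median of -0.18. The sum of these glial markers was 1496, 1332, 1492 and 1360 FPKM in library order. Microglia markers had medians of 0.19 in males and -0.12 in females, and oligodendrocyte lineage markers medians of -0.14 and -0.13. The hippocampal neuron markers had medians of 0.03 and -0.01. Of the choroid plexus markers, 11 of 11 were higher in male BPA, while in female BPA 4 of 11 were higher and 7 lower, most of them at low levels. Ttr, the most abundant of these markers, was at 256, 690, 3.96 and 42.4 FPKM in library order. In a bulk sample fewer cells of a type and less RNA per cell cannot be told apart. Abcg1 and Abcg2 were higher in female BPA, where the endothelial and glial lists were lower. The part of these cells in the values of Abcc1, Abca2, Abcc4, Abcg1 and the other members was not tested.

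Over the 4 libraries, the pattern of Abca7 was matched most closely by Ccny, Sardh and Neu1 (Pearson r of at least 0.999 each), and that of Abca1 by Erbb4, Fastkd1 and Ntrk3 (also at least 0.999). With 4 points r describes the order and spacing of the values only. An r of at least 0.99 was reached with Abca7 by 62 of 10857 rows and with Abca1 by 57 of 10856 rows.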

How the data were processed

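The hippocampal RNA of Wistar pups was sequenced as 1 pooled library per sex and treatment. The authors deposited 1 FPKM value per gene and library, rounded to 2 decimals and never below 0.01. The submitters' processing notes name HISAT 0.1.6, Bowtie2 2.2.5, RSEM and the build rn6, with no role or order. No counts were used.

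Files were joined by row name (16375 rows in all 4 files). Members were matched by symbol, ignoring case. Members, gene lists and the size threshold of 0.5 were chosen with earlier results of these data known. The named genes are the members, a few regulators and relatives fixed by name, list genes past the threshold, and the 3 closest patterns of Abca7 and Abca1. Single cell type markers named with values were chosen after their values were seen.

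Differences are on the log2(FPKM + 1) scale, where changes of weakly expressed genes look smaller than they are. Comparisons of 2 libraries against 2 used limma (version 3.58.1, R 4.3.3, moderated with a mean trend, no covariate), with Benjamini-Hochberg adjustment over rows averaging 1 FPKM or more. Groups came from the sample titles.

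Depth was estimated from low values of models 300 to 1500 bases long, by finding the fragment total at which they become whole numbers (95.6% to 98.6% lay within 0.15 of one). Poisson intervals and exact binomial intervals of ratios (Clopper-Pearson) follow from it. Python 3.11.15 with pandas 2.3.3 and scipy 1.17.1 was used, and the limma and depth steps were tested on simulated data. Of 200 rows changed by a log2 of 0.5, 1 or 2, limma recovered 0, 0 and 150 for BPA against control. For females against males it recovered 0, 68 and 158. The alternatives were quantile normalization, median-of-ratios scaling, other filters, a pseudocount of 0.1, rows with a gene ID, summed models, a covariate, a threshold of 1 and leaving out each library. Promoters are from RefSeq (GRCr8).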

Additional observations from a re-analysis of the deposited data

Results flagged for a closer look

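In 3 of the 8 genes the male and the female differences had opposite signs, and so did those of the 3 models of Abca3. The change with BPA in females was -0.54 for Abcc1 (0.04 in males), -0.23 for Abca1 (0.16 in males) and 0.35 for Abcg2 (-0.18 in males). For the models it was 0.34 for BGI_novel_G000478 (-0.11 in males), 0.12 for BGI_novel_G000479 (-0.78 in males) and -0.56 for BGI_novel_G000480 (0.28 in males). The male counting intervals of Abcc1, Abca1 and Abcg2 held 1, as did the female intervals of Abcg2 and BGI_novel_G000479. Those signs are thus within counting error. No share of all rows with opposite signs is given. Each direction rests on 1 library per sex and treatment, and the difference between the sexes was not tested.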

How the results depend on the processing

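With 1 pooled library per group, no result within a sex has a replicate check. Of the alternative counts of rows, 24 stayed within 1.5 times the main count and 16 did not. Most of the 24 were limma counts that stayed at 0 or at 1, which says little about stability. In males the 981 rows past a difference of 0.5 became 230 at a threshold of 1, 240 at a mean of at least 5 FPKM, 375 with a gene ID only, 580 with models summed and 1535 with a pseudocount of 0.1. In females 1370 rows became 314 at a threshold of 1, 446 at a mean of at least 5 FPKM and 669 with a gene ID only. The female rows past 0.5 were 441 higher and 929 lower as deposited, and 609 higher and 608 lower after quantile normalization. For both sexes combined limma called 0 rows, 2 with sex as a covariate, and 0 to 3 without 1 library (3 without female control, 1 without male BPA). For females against males it called 1 row, 55 with treatment as a covariate, 21 at a mean of at least 5 FPKM, 34 with a gene ID only, 20 with models summed, and 1 to 2 without 1 library. The causes of these shifts were not tested.

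Of the alternative values of single genes and models, 13 changed direction, and 268 stayed on their side of the threshold where tested, or within counting error where not. Among the latter Abcb1b in females changed sign, from -0.04 to 0.07 after quantile normalization. Leaving out 1 library (its lone partner being taken to vary like the other groups), the combined difference ranged from -0.20 to 0.12 for Abca1 (0.12 without female control), from -0.48 to 0.023 for Abca2 and from -0.20 to 0.37 for Abcg2 (both turned without female BPA), from -0.52 to 0.75 for BGI_novel_G000478 and from -0.88 to 0.60 for BGI_novel_G000480. Both models turned without male BPA (-0.29 and 0.19) and without female control (-0.52 and 0.60). Abca1 was 0.0015 after quantile normalization. Female minus male ranged from -0.24 to 0.31 for Abcc1 (turned without female control), from -0.16 to 0.16 for Abcc4 (-0.03 without male BPA, -0.16 without female control, -0.0020 with a pseudocount of 0.1) and from -0.20 to 0.31 for Abcg1 (turned without female BPA). Within a sex, Abcc1 in females ranged from -0.58 with a pseudocount of 0.1 to -0.49 with median-of-ratios scaling, and Abca7 in males was -0.73 with a pseudocount of 0.1. BGI_novel_G000478 passed the female against male test in limma with treatment as a covariate (-1.05, adjusted p 0.01996) and at a mean of at least 5 FPKM (-1.05, adjusted p 0.0368). Depth limits Abcb1b and Abca7 most. No paired analysis was possible because the labels number no replicates, and sex as a covariate stands in its place.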
